A study of Mus musculus with 4 samples.

Results

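The genes that carry a cell through mitosis were compared between whole livers of mice that lack Cnot3 in hepatocytes and control livers, all taken 4 weeks after birth. The set holds 52 genes, chosen by name for their known parts in building the spindle, attaching and watching over the kinetochores, folding and separating the chromosomes, and dividing the cell. Earlier results of these data were known when the genes were chosen. Each gene was read from the probe sets that name it alone on an Affymetrix mouse genome array, and the brightest of these over the 4 arrays stood for it. All 52 genes were measured, among 16758 genes tested; Sgol1 is listed under its current symbol Sgo1.

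The Control group held 2 livers labelled wild type on the C57BL/6 background. By the methods, a control animal could also carry a floxed Cnot3 allele or the Cre transgene, and the labels do not say which of these genotypes the livers had. The Cnot3KO group held 2 livers from mice with floxed Cnot3 and a Cre recombinase driven by the albumin promoter, so that hepatocytes and their precursors lose the gene whereas endothelial, stellate and blood-derived cells of the same liver keep it. The sex of the mice is not in the labels, and the labels number the 2 livers of a group without saying outright that they came from separate mice or extractions. The p-values therefore measure only the spread between these samples, which may be partly technical. Cnot3, a non-catalytic subunit of the Ccr4-Not deadenylase that shortens poly(A) tails, gave 5.99 and 6.04 in the Control livers and 5.15 and 5.30 in the Cnot3KO livers on the log2 intensity scale. It fell by 0.79 in this probe set (limma, adjusted p = 0.0372), but the call was lost without any 1 of the 4 arrays (adjusted p from 0.0885 to 0.211), its other probe set was not called, and the position of neither relative to the deleted exons was examined.

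In dividing cells, condensins and topoisomerase II compact and disentangle the chromosomes, kinesins and microtubule-binding proteins form the spindle, and kinetochores tie each chromosome to it. The spindle checkpoint holds back the anaphase-promoting complex until every kinetochore is attached, after which the sister chromatids part and the cytokinetic ring cleaves the cell. Hepatocytes divide actively in the first weeks of life and then largely leave the cell cycle, and in rodents many skip the last step and become binucleate or polyploid.

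Most of the 52 genes were higher in Cnot3KO livers and none was lower. 42 of the 52 (80.8%) rose at an adjusted p under 0.05, where 12.2% of all genes tested were called higher. None fell, where 4.64% of all genes were called lower, and 10 were not called. Without adjustment, 48 were higher and 0 were lower at a p under 0.05. The differences between group means ran from -0.42 (Kif15, a spindle kinesin) to 3.48 (Aurka, the spindle-pole kinase) on the log2 scale, with a median of 2.19 against 0.002 for all genes tested. When a gene was instead taken as the mean of its kept probe sets, the median of the 52 genes was 1.45. 31 genes (59.6%) differed by more than 4-fold upward, compared with 2.94% of all genes. The standard errors lay between 0.16 and 0.52. With 1 array fewer, between 26 genes (without Control 2) and 39 genes (without Cnot3KO 1) were called higher, and 22 of the 42 kept the call without each array in turn. The plain t-test with Benjamini-Hochberg adjustment called 0 of them, and before adjustment it had 33 higher and 0 lower at a p under 0.05.

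**Figure D1:**
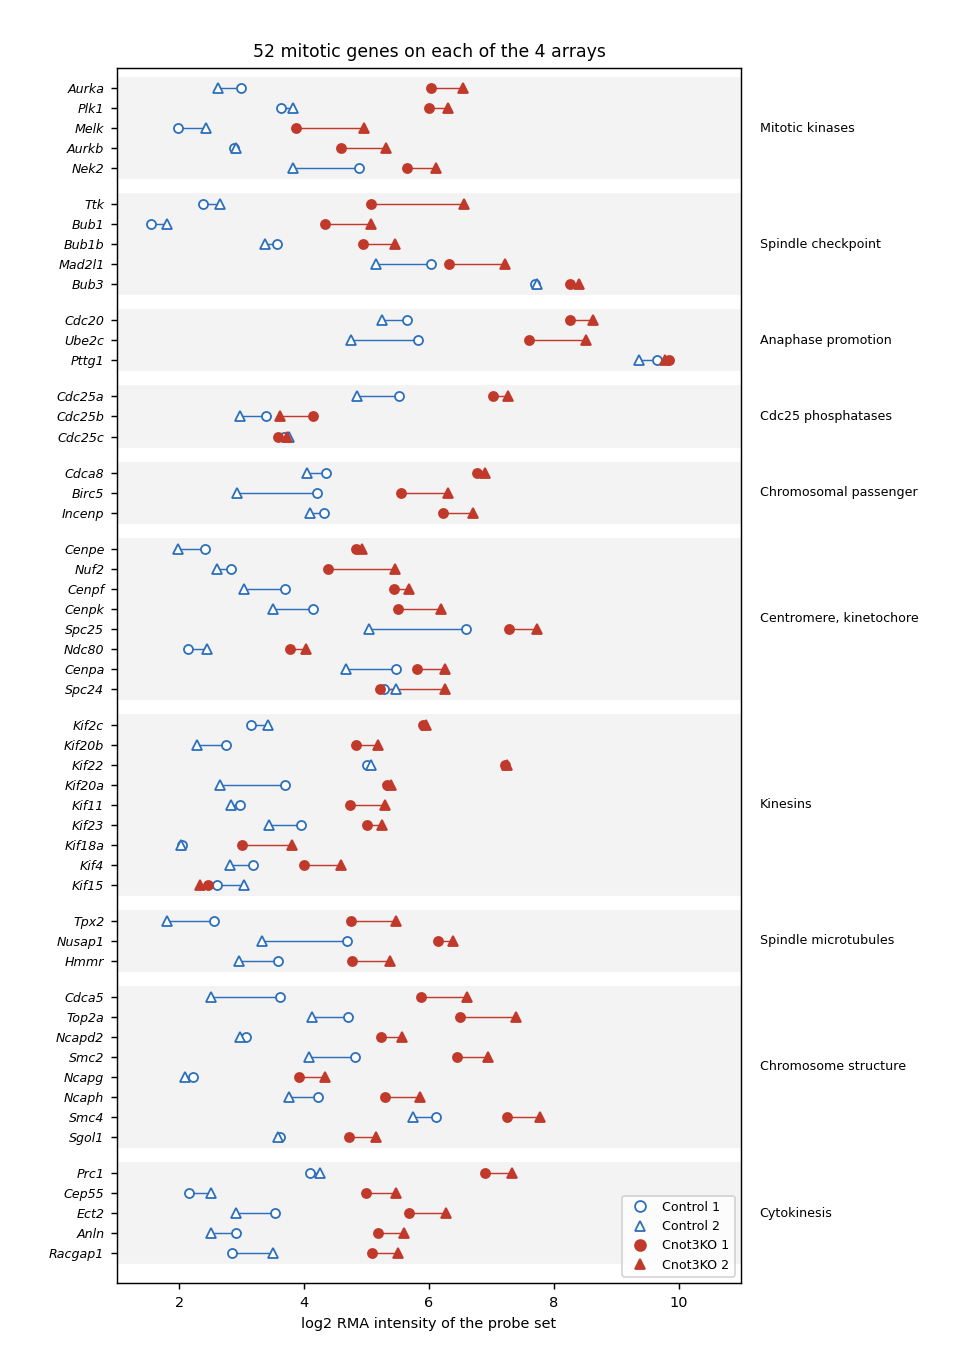
Log2 intensity of the probe set that stands for each of the 52 genes (horizontal axis), by functional group; open symbols are the 2 Control livers, filled symbols the 2 Cnot3KO livers, and a line joins the livers of a group. Both Cnot3KO values lie to the right of both Control values for 49 genes; the others are Cdc25c, Spc24 and Kif15.

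Both Cnot3KO livers lay above both Control livers for 49 genes (94.2%), compared with 34.8% of all genes. The values of the groups overlapped for Cdc25c and Spc24, and for Kif15 both Control values were the higher ones. Over the 52 genes, the lowest, median and highest values were 1.54, 3.62 and 9.65 in Control 1 and 1.80, 3.35 and 9.36 in Control 2. They were 2.46, 5.31 and 9.85 in Cnot3KO 1 and 2.32, 5.91 and 9.78 in Cnot3KO 2. These are intensities of different probe sets and rank the arrays, not the genes. For 19 of the 52 genes, among them Aurka, Ttk, Bub1 and Cdca5, the Control mean lay under the median of the Control arrays (3.11 and 3.14), which held for 1 gene, Kif15, in the Cnot3KO livers. Such values were not shown to be above background, so the size of these differences is less certain. Whole livers were measured, so a higher value cannot be told apart as more dividing cells or more RNA per cell.

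**Figure D2:**
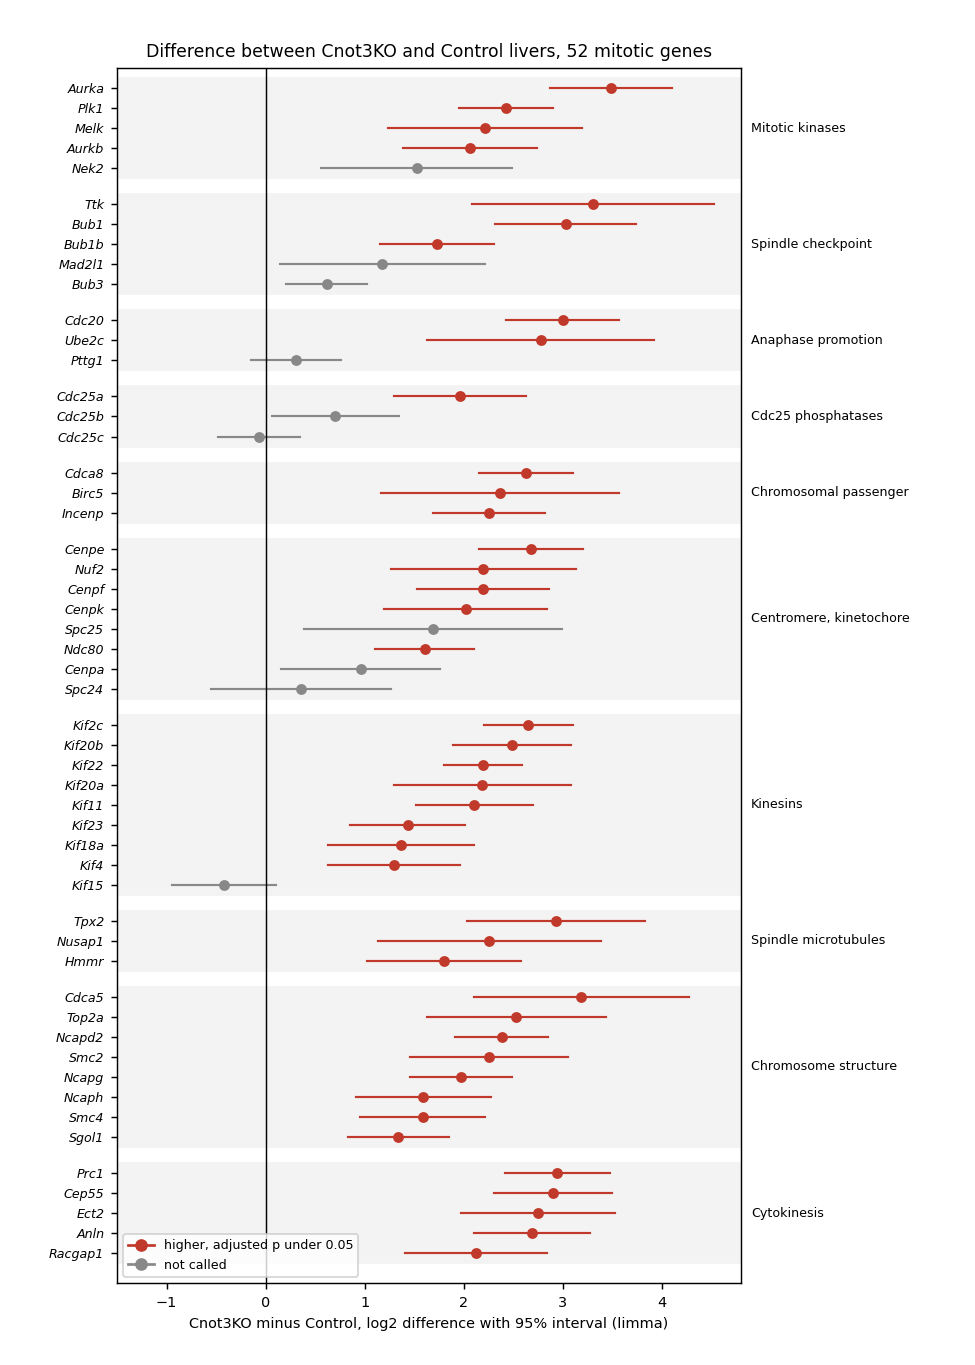
Difference between the mean of 2 Cnot3KO livers and the mean of 2 Control livers for each gene (log2 scale, horizontal axis), with the 95% confidence interval from limma; red marks an adjusted p under 0.05 and grey a gene not called. The 42 red intervals all lie above 0, and those of Pttg1, Cdc25c, Spc24 and Kif15 cross it.

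Many promoters of mitotic genes are known to hold a pair of short elements, the CCAAT box bound by the trimeric factor NF-Y and, downstream of it, the cell cycle genes homology region (CHR, TTTGAA), bound by the DREAM and MuvB complexes that repress these genes in resting cells and activate them late in the cell cycle. Both words were searched on both strands (CCAAT or ATTGG, and TTTGAA or TTCAAA) in the RefSeq windows of the mouse assembly GRCm38.p6, from 250 bases before to 50 bases after an annotated start. Windows were found for 45 of the 52 genes; none was matched for Aurkb, Cdc25c, Incenp, Spc24, Kif20a, Tpx2 and Smc4. CCAAT occurred for 30 of the 45 genes (66.7%) and TTTGAA for 30 (66.7%), and both for 23 (51.1%). Of the 13345 genes tested that have such windows, 41.9% held CCAAT, 15.1% TTTGAA and 5.96% both. Of 83 other genes of mitosis with windows, from the lists described further below, 60.2% held CCAAT, 39.8% TTTGAA and 30.1% both. Neither word was found for 8 of the 45 genes (17.8%), compared with 50.1% of the genes tested. Among the 37 called genes with a window, 20 (54.1%) held both words, and so did 3 of the 8 genes not called. A match is a string of letters and was not examined as a binding site.

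The stretches below, from 100 bases before to 30 bases after the start, belong to the 6 called genes with the largest differences that hold both words inside it, and to Bub3, which was not called, for contrast. They show where the words lie. Since the stretches were chosen to hold both words, their nearness was partly set by this choice. All are on GRCm38.p6, read 5′ to 3′ along the gene's own strand, with the matches in capitals.
Ttk: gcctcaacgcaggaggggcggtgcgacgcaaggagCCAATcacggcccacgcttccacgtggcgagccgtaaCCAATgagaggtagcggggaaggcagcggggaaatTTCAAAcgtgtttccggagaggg
Cdc20: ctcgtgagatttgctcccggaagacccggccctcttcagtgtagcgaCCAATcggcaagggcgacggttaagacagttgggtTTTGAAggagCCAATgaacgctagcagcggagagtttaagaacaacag
Prc1: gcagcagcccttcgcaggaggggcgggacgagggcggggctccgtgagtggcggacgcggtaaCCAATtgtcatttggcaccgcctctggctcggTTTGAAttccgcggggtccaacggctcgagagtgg
Ube2c: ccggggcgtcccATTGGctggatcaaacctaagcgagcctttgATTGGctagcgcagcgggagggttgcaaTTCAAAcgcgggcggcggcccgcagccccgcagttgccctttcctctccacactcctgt
Ect2: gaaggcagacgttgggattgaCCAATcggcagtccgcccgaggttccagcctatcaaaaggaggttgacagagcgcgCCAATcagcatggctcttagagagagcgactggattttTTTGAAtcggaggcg
Cdca8: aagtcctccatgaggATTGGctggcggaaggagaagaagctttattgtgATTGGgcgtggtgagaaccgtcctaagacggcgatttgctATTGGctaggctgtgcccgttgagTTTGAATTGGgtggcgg
Bub3: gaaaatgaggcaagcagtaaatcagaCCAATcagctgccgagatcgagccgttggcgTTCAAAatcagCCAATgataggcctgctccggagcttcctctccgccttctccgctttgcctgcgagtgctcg
The stretches are, in this order, chr9:83834589-83834718 (plus strand), chr4:118437314-118437443 (minus strand), chr7:80294351-80294480 (plus strand), chr2:164769829-164769958 (plus strand), chr3:27153825-27153954 (minus strand, the second annotated start of Ect2), chr4:124936888-124937017 (minus strand) and chr7:131560270-131560399 (plus strand). From the end of the nearest upstream CCAAT match to the TTTGAA match there were 30 bases in Ttk and in Cdc20, 27 in Prc1, 23 in Ube2c, 33 in Ect2, 19 in Cdca8 and 26 in Bub3. In Cdca8 the last CCAAT match, read as ATTGG, shares 1 base with TTTGAA. Bub3, picked by hand among the genes not called, thus had a distance within the range of these 6 genes. The other genes not called with both words, Spc25 and Cenpa, had 42 and 97 bases between them. Over the whole windows of called genes, this distance ran from 4 bases in Kif23 to 148 in Bub1b. Whether it bears on the calls was not tested.

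**Figure D3:**
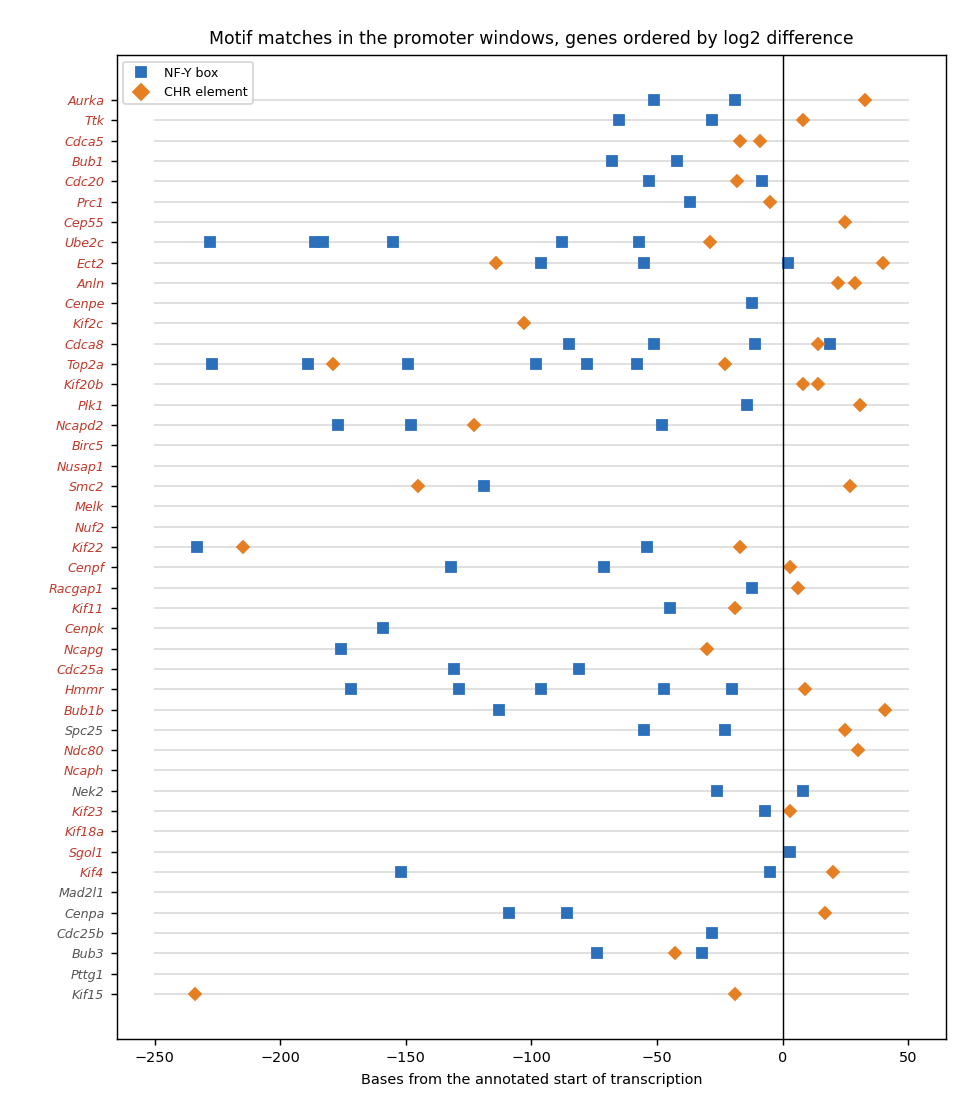
Matches to the NF-Y box (blue squares) and the CHR element (orange diamonds) by distance in bases from the annotated start (horizontal axis) in the first RefSeq window of the 45 genes that have one, ordered from the largest log2 difference (Aurka) to the smallest (Kif15); red names were called higher and grey names were not called. Lines without a symbol are the 8 genes with neither word, 6 of them called.

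Of the mitotic kinases, 4 of 5 rose, with a median difference of 2.22. Aurka, which drives centrosome maturation and spindle assembly, gave 2.98 and 2.62 in the Control livers and 6.03 and 6.54 in the Cnot3KO livers. Its difference of 3.48 ± 0.24 (SE) on the log2 scale was the largest of the 52 genes (limma, adjusted p = 0.00422). Plk1, the kinase that acts at centrosomes, kinetochores and the midbody, measured 3.63 and 3.82 in the Control livers and 6.00 and 6.30 in the Cnot3KO livers, and rose by 2.43 ± 0.19 (limma, adjusted p = 0.00493). The Control values of both kinases lay close together, and more than 2 units under the lower Cnot3KO value. Melk, a kinase of proliferating progenitors, measured 1.98 and 2.42 in the Control livers and 3.88 and 4.96 in the Cnot3KO livers, with a difference of 2.22 ± 0.39 (limma, adjusted p = 0.0247). Aurkb, the catalytic subunit of the chromosomal passenger complex, rose by 2.06 ± 0.27 (limma, adjusted p = 0.0127). Nek2, which separates the centrosomes before mitosis, was not called, with 4.88 and 3.82 in the Control livers and 5.64 and 6.11 in the Cnot3KO livers, a difference of 1.52 ± 0.38 and a 95% interval of 0.56 to 2.49 (limma, adjusted p = 0.0599). Its Control livers differed by more than 1 unit, and without Control 1 it was called higher by 2.05 (limma, adjusted p = 0.0462). Without Control 1 or Control 2 the calls were lost for Melk (limma, adjusted p = 0.109 and 0.0671) and for Aurkb (limma, adjusted p = 0.0654 and 0.0514).

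Of the 5 spindle checkpoint genes, 3 rose. Ttk, the kinase that starts checkpoint signalling at unattached kinetochores, gave 2.37 and 2.65 in the Control livers and 5.07 and 6.56 in the Cnot3KO livers, and the difference was 3.30 ± 0.49 (limma, adjusted p = 0.0163). Bub1, a kinase that marks the centromere, measured 1.54 and 1.80 in the Control livers and 4.33 and 5.07 in the Cnot3KO livers, and rose by 3.03 ± 0.28 (limma, adjusted p = 0.00701). Bub1b, which encodes BubR1 of the mitotic checkpoint complex, measured 3.57 and 3.37 in the Control livers and 4.95 and 5.46 in the Cnot3KO livers, a difference of 1.73 ± 0.23 (limma, adjusted p = 0.013). All 3 genes were separated by more than 1 unit between the groups, and the 2 Cnot3KO livers differed from each other by more than 1 unit for Ttk. The other 2 genes of this group were not called. Bub3, a binding partner of Bub1 and BubR1 that is used outside mitosis as well, gave 7.69 and 7.73 in the Control livers and 8.26 and 8.40 in the Cnot3KO livers, with a difference of 0.62 ± 0.16 and an interval of 0.21 to 1.03 (limma, adjusted p = 0.0662). Mad2l1, the checkpoint protein Mad2 that binds Cdc20, measured 6.03 and 5.16 in the Control livers and 6.32 and 7.22 in the Cnot3KO livers, with a difference of 1.18 ± 0.41 and an interval of 0.14 to 2.22 (limma, adjusted p = 0.125). For both, each Cnot3KO liver was above each Control liver. Without Control 1 or Control 2 the calls were lost for Ttk (limma, adjusted p = 0.0848 and 0.0613) and Bub1b (limma, adjusted p = 0.0558 and 0.0517), whereas Bub1 kept its call without each array.

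Among the genes of anaphase onset, Cdc20 and Ube2c, which work with the anaphase-promoting complex, were called higher and securin was not. Cdc20, the co-activator that the checkpoint restrains, gave 5.65 and 5.25 in the Control livers and 8.26 and 8.63 in the Cnot3KO livers, and rose by 3.0 ± 0.23 or 7.99-fold (limma, adjusted p = 0.00458). Ube2c, the ubiquitin-conjugating enzyme that works with the complex, measured 5.82 and 4.74 in the Control livers and 7.61 and 8.51 in the Cnot3KO livers, a difference of 2.78 ± 0.46 (limma, adjusted p = 0.0207), and lost its call without Control 2 (limma, adjusted p = 0.0601). These are the promoters in which CCAAT precedes TTTGAA by 30 and 23 bases. Pttg1, which encodes securin, the inhibitor of separase, gave 9.65 and 9.36 in the Control livers and 9.85 and 9.78 in the Cnot3KO livers, with a difference of 0.31 ± 0.18 and an interval of -0.15 to 0.77 (limma, adjusted p = 0.305). This probe set was bright on every array, and both Cnot3KO values were only slightly above the higher Control value. Its 2 other probe sets gave differences of 0.09 and -0.87, neither called (limma, adjusted p = 0.795 and 0.0679), so the average over its probe sets had the opposite sign, at -0.16.

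Of the 3 Cdc25 phosphatases, which remove the inhibitory phosphates from cyclin-dependent kinases, 1 was called higher. Cdc25a, which acts from the start of S phase onward, gave 5.51 and 4.85 in the Control livers and 7.03 and 7.27 in the Cnot3KO livers, and rose by 1.96 ± 0.26 (limma, adjusted p = 0.0135). Cdc25b, which acts at the centrosome at mitotic entry, measured 3.38 and 2.97 in the Control livers and 4.14 and 3.62 in the Cnot3KO livers, with a difference of 0.70 ± 0.26 and an interval of 0.06 to 1.34 (limma, adjusted p = 0.135). Both Cnot3KO values of Cdc25b lay above both Control values, and the study reported higher Cdc25b by quantitative PCR in such livers. Cdc25c, the phosphatase of the mitotic cyclin B-Cdk1 switch, measured 3.68 and 3.76 in the Control livers and 3.58 and 3.72 in the Cnot3KO livers, with a difference of -0.07 ± 0.16 and an interval of -0.48 to 0.34 (limma, adjusted p = 0.806). The 4 values of Cdc25c lay close together. Its difference became 0.0034 without Cnot3KO 1, and its dimmer probe set gave 0.82 (limma, adjusted p = 0.0696), which turned the mean of its probe sets to 0.38.

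All 3 measured subunits of the chromosomal passenger complex that place Aurora B on the chromosomes rose. Cdca8, which encodes borealin, gave 4.35 and 4.04 in the Control livers and 6.76 and 6.89 in the Cnot3KO livers, and the difference was 2.63 ± 0.19 (limma, adjusted p = 0.00422). Birc5, which encodes survivin, measured 4.2 and 2.92 in the Control livers and 5.55 and 6.30 in the Cnot3KO livers, a difference of 2.37 ± 0.48 (limma, adjusted p = 0.0348). Incenp, the scaffold of the complex, measured 4.32 and 4.10 in the Control livers and 6.23 and 6.71 in the Cnot3KO livers, a difference of 2.26 ± 0.22 (limma, adjusted p = 0.00742). Their median difference was 2.37, and the Control livers were farthest apart for Birc5, by 1.29. Birc5 lost its call without Control 2 (limma, adjusted p = 0.0709) and without Cnot3KO 2 (limma, adjusted p = 0.0873).

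Of the 8 centromere and kinetochore genes, 5 rose, with a median difference of 1.86 over the 8. Cenpe, the kinetochore kinesin that carries chromosomes to the spindle equator, gave 2.41 and 1.98 in the Control livers and 4.82 and 4.93 in the Cnot3KO livers, and rose by 2.68 ± 0.21 (limma, adjusted p = 0.00486). Nuf2, a subunit of the microtubule-binding Ndc80 complex, measured 2.83 and 2.61 in the Control livers and 4.37 and 5.46 in the Cnot3KO livers, a difference of 2.20 ± 0.37 (limma, adjusted p = 0.0224). Cenpf, a large protein of the outer kinetochore, measured 3.69 and 3.03 in the Control livers and 5.43 and 5.67 in the Cnot3KO livers, a difference of 2.19 ± 0.26 (limma, adjusted p = 0.0106). Cenpk, of the inner kinetochore network, rose by 2.02 ± 0.33 (limma, adjusted p = 0.02), and Ndc80 itself by 1.61 ± 0.20 (limma, adjusted p = 0.0111). Of the 4 subunits of the Ndc80 complex, Ndc80 and Nuf2 were called, and Spc24 and Spc25, which anchor the complex on the kinetochore, were not. The difference was larger for Spc25 than for Ndc80, so the split did not follow its size there, whereas that of Spc24 was the smallest of the 4. Spc25 gave 6.59 and 5.04 in the Control livers and 7.28 and 7.74 in the Cnot3KO livers, with a difference of 1.70 ± 0.52 and an interval of 0.39 to 3.0 (limma, adjusted p = 0.0932). Spc24 measured 5.29 and 5.48 in the Control livers and 5.21 and 6.26 in the Cnot3KO livers, with a difference of 0.35 ± 0.36 and an interval of -0.55 to 1.26 (limma, adjusted p = 0.543). The 2 Control livers differed by 1.56 for Spc25, which was called without Control 1 (2.47; limma, adjusted p = 0.0411), and the 2 Cnot3KO livers by 1.05 for Spc24, whose difference became -0.17 without Cnot3KO 2. Cenpa, the histone H3 variant that marks the centromere, gave 5.47 and 4.67 in the Control livers and 5.81 and 6.26 in the Cnot3KO livers, with a difference of 0.96 ± 0.32 and an interval of 0.16 to 1.76 (limma, adjusted p = 0.113). Whether the 2 pairs of Ndc80 subunits differed from each other was not tested. Without Control 1 the calls were lost for Nuf2, Cenpk and Ndc80 (limma, adjusted p = 0.0883, 0.0536 and 0.0503), and without Control 2 for Nuf2 and Cenpk (limma, adjusted p = 0.0862 and 0.0663).

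Of the 9 kinesins, 8 rose, by 1.29 to 2.65 on the log2 scale. Kif2c, which depolymerizes microtubules at the centromere to correct wrong attachments, gave 3.14 and 3.42 in the Control livers and 5.91 and 5.96 in the Cnot3KO livers, and the difference was 2.65 ± 0.18 (limma, adjusted p = 0.00422). Kif20b, a motor of the central spindle and midbody, measured 2.75 and 2.28 in the Control livers and 4.82 and 5.18 in the Cnot3KO livers, a difference of 2.49 ± 0.24 (limma, adjusted p = 0.00709). Kif22, the chromokinesin that pushes chromosome arms outward, measured 5.0 and 5.07 in the Control livers and 7.21 and 7.24 in the Cnot3KO livers, a difference of 2.19 ± 0.16 (limma, adjusted p = 0.00422). The livers of each group were nearly equal for Kif22, whose standard error was the smallest of the 52 genes. Kif20a, which brings passenger proteins to the central spindle, rose by 2.19 ± 0.36 and Kif11, the bipolar motor that pushes the spindle poles apart, by 2.11 ± 0.24 (limma, adjusted p = 0.0202 and 0.00931). Kif23, the motor of centralspindlin, rose by 1.43 ± 0.23, Kif18a, which dampens chromosome oscillations, by 1.36 ± 0.29, and the chromokinesin Kif4 by 1.29 ± 0.27 (limma, adjusted p = 0.0199, 0.0403 and 0.0361). Kif15, which can stand in for Kif11 in keeping the spindle bipolar, was not called. It gave 2.60 and 3.03 in the Control livers and 2.46 and 2.32 in the Cnot3KO livers, with a difference of -0.42 ± 0.21 and an interval of -0.94 to 0.10 (limma, adjusted p = 0.238). Its only probe set lay under the array median on all 4 arrays, so whether it detects the gene in these livers is not known. Several kinesin calls depended on single arrays. Kif4 and Kif18a lost theirs without Control 1, Control 2 or Cnot3KO 2 (limma, adjusted p from 0.0854 to 0.132), Kif23 without Control 2 or either Cnot3KO array (limma, adjusted p from 0.0512 to 0.0708), and Kif20a without Cnot3KO 1 (limma, adjusted p = 0.0533).

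The 3 genes for proteins that nucleate or bundle spindle microtubules rose as well. Tpx2, the activator of Aurora A on the spindle, gave 2.56 and 1.80 in the Control livers and 4.75 and 5.48 in the Cnot3KO livers, and the difference was 2.93 ± 0.36 (limma, adjusted p = 0.0109). Nusap1, which bundles microtubules near the chromosomes, measured 4.69 and 3.33 in the Control livers and 6.15 and 6.39 in the Cnot3KO livers, a difference of 2.26 ± 0.45 (limma, adjusted p = 0.0329). Hmmr, a hyaluronan-binding protein that also sits on the spindle, measured 3.58 and 2.96 in the Control livers and 4.76 and 5.38 in the Cnot3KO livers, a difference of 1.80 ± 0.31 (limma, adjusted p = 0.0235). Control 1 was above Control 2 for all 3, most of all for Nusap1. Nusap1 lost its call without either Cnot3KO array (limma, adjusted p = 0.0716 and 0.0808) and Hmmr without Control 1, Control 2 or Cnot3KO 2 (limma, adjusted p = 0.0551, 0.0724 and 0.0624).

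All 8 genes of chromosome structure rose, with a median difference of 2.11. Cdca5, which encodes sororin, the protector of sister chromatid cohesion, gave 3.61 and 2.51 in the Control livers and 5.88 and 6.61 in the Cnot3KO livers, and the difference was 3.19 ± 0.43 (limma, adjusted p = 0.0137). Top2a, the topoisomerase II of dividing cells, measured 4.70 and 4.13 in the Control livers and 6.50 and 7.40 in the Cnot3KO livers, a difference of 2.53 ± 0.36 (limma, adjusted p = 0.0153). Ncapd2, a regulatory subunit of condensin I, measured 3.07 and 2.97 in the Control livers and 5.24 and 5.57 in the Cnot3KO livers, a difference of 2.38 ± 0.19 (limma, adjusted p = 0.00495). The other 4 condensin genes of the set rose as well, the core ATPases Smc2 by 2.26 ± 0.32 and Smc4 by 1.59 ± 0.25, and the condensin I subunits Ncapg by 1.97 ± 0.20 and Ncaph by 1.59 ± 0.27 (limma, adjusted p = 0.0147, 0.0193, 0.00812 and 0.0227). Sgol1, the shugoshin that shields centromeric cohesin, rose by 1.34 ± 0.20 (limma, adjusted p = 0.0173). Control 1 was above Control 2 and Cnot3KO 2 above Cnot3KO 1 for each of the 8. Smc4, Ncaph and Sgol1 lost their calls without Control 1, Control 2 or Cnot3KO 2 (limma, adjusted p from 0.057 to 0.0741), and Top2a without Control 1 or Control 2 (limma, adjusted p = 0.055 and 0.0597). The other probe sets of Top2a gave differences of -0.13 and 0.03, and averaged over its probe sets the gene was not called (0.81; limma, adjusted p = 0.0537).

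The 5 genes of cytokinesis all rose by more than 4-fold, with a median difference of 2.75. Prc1, which bundles the antiparallel microtubules of the central spindle, gave 4.09 and 4.26 in the Control livers and 6.90 and 7.33 in the Cnot3KO livers, and the difference was 2.95 ± 0.21 or 7.71-fold (limma, adjusted p = 0.00422). Cep55, which recruits the abscission machinery to the midbody, measured 2.15 and 2.50 in the Control livers and 5.0 and 5.46 in the Cnot3KO livers, a difference of 2.91 ± 0.24 (limma, adjusted p = 0.00533). Ect2, the exchange factor that activates RhoA at the cleavage site, measured 3.54 and 2.90 in the Control livers and 5.67 and 6.27 in the Cnot3KO livers, a difference of 2.75 ± 0.31 (limma, adjusted p = 0.00932). The lower Cnot3KO value was more than 2 units above the higher Control value for each of these 3 genes. Anln, the anillin scaffold of the contractile ring, rose by 2.69 ± 0.23 (limma, adjusted p = 0.00584), and Racgap1, the partner of Kif23 in centralspindlin, by 2.12 ± 0.28 (limma, adjusted p = 0.0133). Without Control 1 Racgap1 was not called (limma, adjusted p = 0.0501), and the other members of this group kept their calls without each array.

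Within each group, 1 liver had the higher values for most of the 52 genes. Cnot3KO 2 was above Cnot3KO 1 for 49 of the 52 genes (94.2%), where this held for 48.2% of all genes tested, and the median of Cnot3KO 2 minus Cnot3KO 1 was 0.46 against -0.01 for all genes. Control 1 was above Control 2 for 37 genes (71.2%), where this held for 48.4% of all genes, and the median was 0.36 against -0.01. The 2 livers of a group thus differed in the level of the set as a whole by less than the difference of 2.19 between the groups. Leaving out an array moved the median difference to between 1.88 (without Cnot3KO 2) and 2.37 (without Cnot3KO 1). The 52 genes were read from the same 4 livers, so their number adds no replicates.

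**Figure D4:**
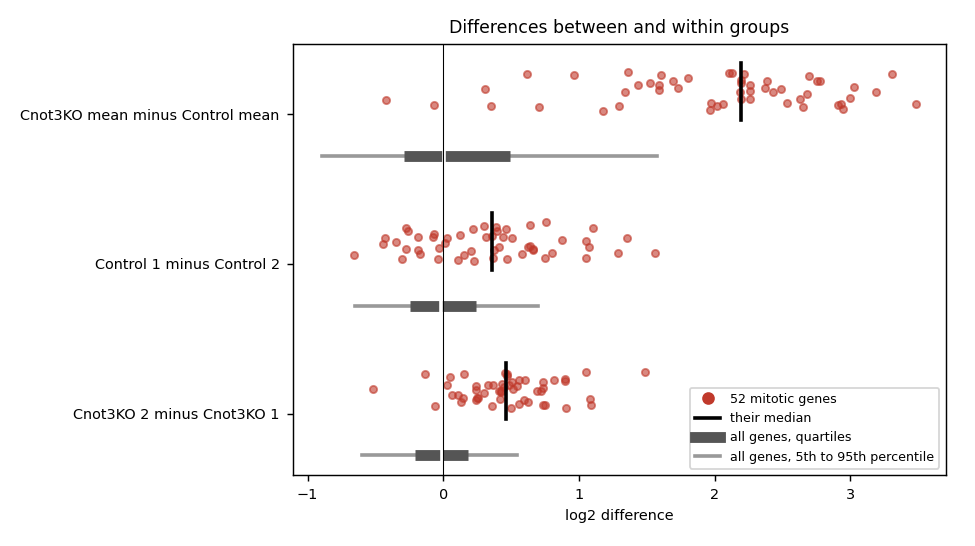
Log2 difference (horizontal axis) of each of the 52 genes (red points) between the group means, between the 2 Control livers and between the 2 Cnot3KO livers; black lines are the medians of the 52 genes (2.19, 0.36 and 0.46), and the grey bars give the quartiles and the 5th to 95th percentiles of all genes tested. The points lie to the right of the grey bars most of all in the comparison between groups.

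The 52 genes were covered by 125 probe sets, of which 111 passed the filter on low values. Of these 65 were called higher and 0 lower. The mean log2 intensity over the arrays was under 3 for 27 of the 46 not called and for 6 of the 65 called. Among the 32 genes with several probe sets that passed the filter, all were called higher for 9 genes, some for 17 and none for 6. Cdc20 showed both kinds, since 2 of its probe sets gave differences of 3.0 and 2.99 and the other one 0.47 (limma, adjusted p = 0.00458, 0.00701 and 0.204). For Incenp, 2 probe sets gave 2.26 and 1.89 and were called, and the 3 others gave -0.10, -0.21 and -0.27 and were not.

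Other genes of mitosis were counted beside the set. Of 107 such genes, listed from general knowledge with earlier results of these data known, 103 were measured. Of these, 47 (45.6%) were called higher and 1 was called lower, with a median difference of 0.95. Of all genes tested, 12.2% were called higher and 4.64% lower. Of the 24 further spindle and centrosome genes, 17 rose, led by Psrc1, a spindle protein that is also a target of p53, which gave 2.98 and 2.46 in the Control livers and 9.45 and 8.37 in the Cnot3KO livers, a difference of 6.19 ± 0.40 (limma, adjusted p = 0.00422). Ckap2 and Gtse1, both microtubule-associated, rose by 2.90 and 2.45. Of 19 genes of mitotic entry and cytokinesis 12 rose, among them Pbk, a mitotic kinase, by 2.85, Cdk1, the master kinase of mitosis, by 2.76 and Cdkn3, a phosphatase that opposes it, by 2.29. Of 28 kinetochore and checkpoint genes 9 rose, with Cenpt, an anchor of the Ndc80 complex, at 3.21, Trip13, the ATPase that dismantles the checkpoint complex, at 2.51 and Zwilch, of the dynein-recruiting RZZ complex, at 2.12, and Nsl1, of the Mis12 complex, fell by 1.22 ± 0.23 (limma, adjusted p = 0.0286).

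In the 2 remaining lists the median differences were 0.64 and 0.19. Of 16 genes of the anaphase-promoting complex and its regulators 6 rose, with the largest differences for the subunits Anapc4 (1.71) and Anapc10 (1.43) and the separase gene Espl1 (1.55). Of 16 further genes, a list of cohesin and condensin genes that also held the proliferation marker Mki67, 3 rose. This share of 18.8% was near the 12.2% of all genes tested. These were the cohesin acetyltransferase Esco2 (3.83), the shugoshin Sgol2 (2.98) and the condensin II subunit Ncapg2 (2.30), whereas the condensin II subunits Ncapd3 (0.33) and Ncaph2 (0.45) were not called (limma, adjusted p = 0.543 and 0.152). None of the cohesin core genes Smc1a, Smc3, Rad21, Stag1 and Stag2, which act in interphase as well, was called, with differences from -0.19 to 0.31. The proliferation marker Mki67 measured 5.35 and 3.56 in the Control livers and 5.81 and 6.66 in the Cnot3KO livers, a difference of 1.78 ± 0.62, and was not called (limma, adjusted p = 0.125). The count of 47 came to 24 without Control 1, 21 without Control 2 and 22 without Cnot3KO 2. Of the genes named here, Espl1, Esco2, Ncapg2 and Pbk lost their calls without either Control array, Anapc10 without Control 1 or Cnot3KO 2, Cdkn3 and Trip13 without either Cnot3KO array, and Nsl1 without Control 2 or either Cnot3KO array (limma, adjusted p from 0.0515 to 0.106).

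**Figure D5:**
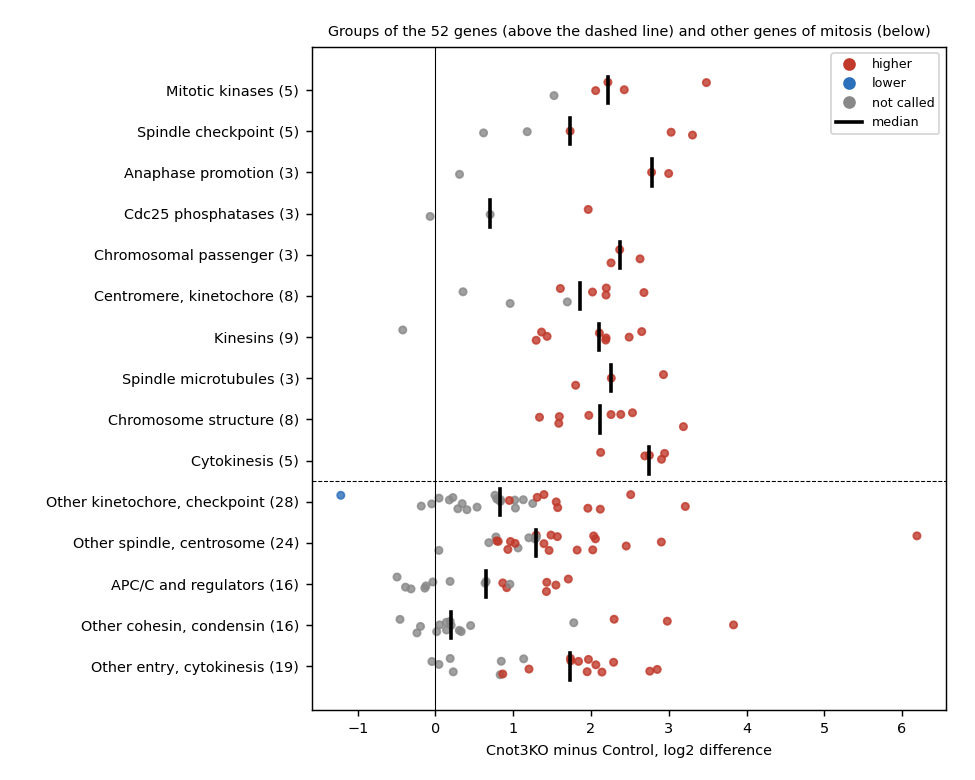
Log2 difference between Cnot3KO and Control livers (horizontal axis) for each gene of the 10 functional groups of the set (above the dashed line) and of 5 lists of other mitosis genes (below it), with the number measured in brackets; red, blue and grey mark genes called higher, lower and not called, and black bars the medians. The medians run from 0.70 (Cdc25 phosphatases) to 2.78 (anaphase promotion) in the set and from 0.19 (other cohesin and condensin genes, counted with Mki67) to 1.74 (entry and cytokinesis) in the other lists.

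Markers of the cell types that a whole liver holds were read on the same arrays, and their summed linear intensities are given in the order replicate 1 and 2. Hepatocyte markers were abundant in all 4 livers, with sums of 55600 and 53200 in the Control and 51500 and 51800 in the Cnot3KO livers, and 3 of 9 were called lower. Markers of several other cells were higher in the Cnot3KO livers. For cholangiocytes 6 of 8 were called higher and the sum went from 65.3 and 56.0 to 1160 and 832, with Cftr under a log2 intensity of 3 on all arrays. Prom1 gave 22.3 and 8.53 against 590 and 535 of this sum, and the 7 others summed to 43 and 47.5 against 571 and 297. For stellate cells 7 of 10 were called higher (2270 and 1840 against 5970 and 4470) and for macrophages 3 of 11 higher and 1 lower (2120 and 2080 against 3360 and 3990). Between the 2 Cnot3KO livers, the cholangiocyte, stellate, endothelial and neutrophil sums were higher in Cnot3KO 1. The macrophage, erythroid and T, B and NK cell sums were higher in Cnot3KO 2, and the hepatocyte sum only slightly so. Of the 52 mitotic genes, 49 were higher in Cnot3KO 2 and 37 in Control 1. In Control 1 the hepatocyte, macrophage, cholangiocyte, stellate and T, B and NK cell sums were the higher ones. In Control 2 the endothelial, erythroid and neutrophil sums were. Neutrophil markers were called higher for 2 of 8 and lower for 1, with a median difference of 0.27 and Mpo under 3 on all arrays. Their sum of 171 and 222 against 1290 and 1070 was mostly Lcn2 (54.4 and 115 against 1120 and 934), and the 7 others summed to 116 and 107 against 173 and 131. No marker was called for endothelial cells (0 of 10; 946 and 1180 against 1050 and 1020) or for T, B and NK cells (0 of 9; 95.3 and 90.3 against 78.4 and 91.9, with Cd79a, Ms4a1 and Ncr1 under 3). Erythroid markers were called lower for 3 of 8, with a median difference of -1.0 and Hba-a1 and Epb4.2 under 3. Their sum of 790 and 968 against 515 and 1040 held Tfrc, the transferrin receptor, at 297 and 515 against 435 and 910, and without it the 7 others summed to 493 and 453 against 80.7 and 131. The part of these cells in the differences of the mitotic genes was not tested.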

How the data were processed

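Total RNA of 2 Control and 2 Cnot3KO livers was hybridized to an Affymetrix mouse genome expression array. The authors deposited linear intensity values per probe set, made with the Robust Multi-array Average algorithm; its version, and whether other arrays were normalized together with these 4, are not given in the sources used here. RMA shrinks differences of dim probe sets, and the number of arrays limits the precision. The log2 of the values was taken with no constant added. Of 45037 probe sets, the 38405 above the 20th percentile of their array on at least 1 array were kept, following the lower limit that the methods give. They were fitted with limma 3.58.1 (lmFit and eBayes, R 4.3.3, 5.4 total degrees of freedom), and p-values were adjusted by Benjamini-Hochberg over all kept probe sets. The same fit was also tested on simulated arrays with known changes. A call is a 2-sided adjusted p under 0.05. A gene is the brightest kept probe set that names it alone. Values on each array are given for up to 3 called genes of a group with the largest differences and for each gene not called; up to 3 called genes are named per other mitosis list. The members and lists were chosen with earlier results of these data known, and Cdc25a, Cdc25b, Ect2 and Kif23 were also assayed by the study itself in such livers, so neither is independent evidence. 15 alternatives were tried. Promoter windows are from RefSeq; protein features were not analysed here.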

Additional observations from a re-analysis of the deposited data

How the results depend on the processing

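With 2 livers a group, 5.4 degrees of freedom stand behind each test, and a gene that missed the threshold is not shown to be equal between the groups. The count of 42 genes called higher came to 0 by the methods' t-test and to 26 to 39 without 1 array (without Control 2 and without Cnot3KO 1), and by the 10 other limma settings it was 34 to 42, with 41 of the genes measured where it was 34. No setting called a member lower. The median difference of 2.19 became 1.45 when a gene was taken as the mean of its probe sets and 1.88 to 2.37 without 1 array. The labels share replicate numbers without saying that these pair the livers, and the deviations of same-numbered livers correlated at 0.23, from only 2 pairs. With the replicate number as a block 36 members were called higher, and the calls of Ube2c, Birc5, Kif4, Kif18a, Nusap1 and Hmmr were lost; Cnot3 was at -0.79 with an adjusted p of 0.0517 in that fit, 36 other mitosis genes were called higher and 0 lower. The 47 other mitosis genes called higher came to 0 by the methods' t-test and to 21 to 38 without 1 array, and the 1 called lower to 0 by the t-test, 0 with the mean of probe sets and 0 to 1 without 1 array. Cnot3 fell by 0.79 with an adjusted p of 0.0551 under a prior that follows intensity and 0.184 by the t-test, and its difference was -0.87 to -0.71 without 1 array. With the mean of its probe sets, the difference of Pttg1 was -0.16 and that of Cdc25c 0.38, and without 1 array Cdc25c ran from -0.14 to 0.0034 and Spc24 from -0.17 to 0.88, with the changed sign without Cnot3KO 1 and Cnot3KO 2, respectively. Centring each array on its median or on its 43 ribosomal protein genes, quantile normalization, no filter and both other priors changed no member's call, and neither did the stricter filter for the 49 genes it left or the removal of shared probe sets for the 41 it left. Of the 42 calls, 35 held in every limma setting with all 4 arrays in which the gene's probe set was measured. The cause of these changes was not tested.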
